A study of Mus musculus with 15 samples.

Results

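The genes described here were Krt7, Krt8, Krt18, Krt19, Cldn4, Sfn, Lgals3, Nupr1, Areg and Hbegf, 10 of the 33340 genes in the deposited count table. They are genes that mark or are released by the Krt8-high transitional alveolar epithelium, and they were chosen by name, by matching the gene identifiers to symbols. All 10 passed the filter on low counts. Polyadenylated RNA of whole lungs from C57BL/6 mice was sequenced in 15 libraries. Day 0 held 4 libraries of lungs without bleomycin, and days 7, 14 and 21 held 4, 4 and 3 libraries of lungs taken that long after 1 dose of bleomycin, a DNA-damaging drug, given into the trachea at 5 U/kg. No transgene or other allele was named for any group. The study's methods give male mice of 10 to 12 weeks for this model. The fourth day 0 library is titled as a control, whereas its treatment label names bleomycin, and here its title decided, so that it counts as day 0. Nothing in the labels says that the libraries came from separate animals, so the p-values measure the spread between these samples.

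After alveolar injury, type 2 cells, which make surfactant, divide and turn into the flat type 1 cells that carry gas exchange. On the way they pass through a stretched, keratin-rich state that has been described in bleomycin-injured mouse lung and is named after Krt8. Cells in this state are known for simple-epithelial keratins, tight junction and stress genes, and for ligands of the epidermal growth factor receptor. None of the genes is limited to that state: keratins 7, 8, 18 and 19 are also made by airway and mesothelial cells, Lgals3 by macrophages, and Areg by several immune cells.

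Total counts lay between 15652008 and 18020661 per library. The share of counts from mitochondrial genes, for which the labels name no batch, ran from 2.28% to 4.22% in day 0, from 2.03% to 2.15% in day 7, from 2.102% to 4.14% in day 14 and from 2.66% to 4.01% in day 21. The tissue label was checked with defining lung genes, and the day 0 means were high, with Sftpc, of type 2 cells, at 19388 CPM, Ager, of type 1 cells, at 2300 CPM and Scgb1a1, of club cells, at 27889 CPM. CPM are counts divided by the TMM-adjusted library size, on the usual CPM scale. In bulk tissue, a change in the number of cells of a type and a change in RNA per cell cannot be told apart, and this holds for every value below.

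The pair Krt8 and Krt18, the type II and type I keratins that assemble into the filaments of simple epithelia, was raised at day 7. Krt8 (ENSMUSG00000049382, mm10 chr15:101996698-102004482, minus strand) had 245, 256, 183 and 191 CPM in the day 0 libraries and 575, 681, 464 and 486 CPM at day 7. Day 14 gave 491, 447, 241 and 336 CPM, and day 21 gave 395, 303 and 291 CPM. Every day 7 and day 21 library stood above every day 0 library, and at day 14 replicate 3 lay within the day 0 range. Krt8 was 2.52-fold higher at day 7 (log2 fold change 1.33, SE 0.21, edgeR adjusted p 0.000472) and 1.73-fold higher at day 14 (0.79, SE 0.20, edgeR adjusted p 0.00809). At day 21 the log2 fold change was 0.59 (SE 0.22), and the call was missed at an edgeR adjusted p of 0.0518. The day 21 call was made with total count scaling (edgeR adjusted p 0.0445) and with the mitochondrial share in the model (log2 fold change 0.66, edgeR adjusted p 0.0215). Among the libraries over 3.5% mitochondrial counts, the day 14 value was 0.86 (edgeR adjusted p 0.0543). A Krt8 pseudogene is counted in a row of its own. Reads that map to both copies would have been left out as multi-mapped, and their number is not known.

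Krt18 (ENSMUSG00000023043, chr15:102028180-102032027, plus strand), a neighbour of Krt8 on the same chromosome, moved in step with it. Its day 0 libraries had 116, 118, 95.5 and 90.5 CPM, and the day 7 libraries 314, 323, 222 and 232 CPM. At day 14 it had 243, 248, 135 and 178 CPM, and at day 21 215, 145 and 154 CPM. All later libraries were above all day 0 libraries. The log2 fold changes were 1.38 at day 7 (SE 0.20, edgeR adjusted p 0.000294), 0.94 at day 14 (SE 0.20, edgeR adjusted p 0.00216) and 0.71 at day 21 (SE 0.21, edgeR adjusted p 0.0198). The day 21 call rested on single libraries: without day 21 replicate 1 the value was 0.48 (edgeR adjusted p 0.150), without day 0 replicate 3 it was 0.63 (edgeR adjusted p 0.0573), and without day 0 replicate 4, the library with the contradictory label, it was 0.61 (edgeR adjusted p 0.0654). Day 21 replicate 1 also held 321 CPM of Myh6, a heart muscle myosin, against 0.399 and 0.118 CPM in the other day 21 libraries, and the part of this in the value was not tested. The pair had 2.08 ± 0.11 Krt8 reads for each Krt18 read at day 0 (SD, n = 4), 2.03 ± 0.13 at day 7 (n = 4), 1.87 ± 0.11 at day 14 (n = 4) and 1.94 ± 0.13 at day 21 (n = 3).

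The other 2 keratins were Krt7 and Krt19. Krt7 (ENSMUSG00000023039, chr15:101411043-101430313, plus strand), a type II keratin of ducts, airways and mesothelium, had 475, 404, 350 and 350 CPM at day 0 and 850, 939, 753 and 624 CPM at day 7. It had 918, 1142, 635 and 632 CPM at day 14 and 569, 822 and 610 CPM at day 21, so that no later library fell into the day 0 range. Krt7 rose by a log2 fold change of 1.004 at day 7 (SE 0.20, edgeR adjusted p 0.00279), 1.07 at day 14 (SE 0.20, edgeR adjusted p 0.000936) and 0.76 at day 21 (SE 0.21, edgeR adjusted p 0.0149). Without day 21 replicate 2, its highest library that day, the day 21 value was 0.54 (edgeR adjusted p 0.109).

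Krt19 (ENSMUSG00000020911, chr11:100140810-100148665, minus strand), the smallest keratin and a type I partner of simple epithelia, passed the test at day 7 only. It had 163, 183, 165 and 142 CPM at day 0 and 337, 458, 303 and 255 CPM at day 7. The day 14 libraries had 286, 265, 150 and 176 CPM and the day 21 libraries 227, 211 and 151 CPM, with values inside the day 0 range on both days. Its log2 fold change was 1.05 at day 7 (SE 0.21, edgeR adjusted p 0.00306), 0.42 at day 14 (SE 0.21, edgeR adjusted p 0.139) and 0.26 at day 21 (SE 0.23, edgeR adjusted p 0.416). Krt19 reads per Krt18 read went from 1.56 ± 0.13 at day 0 to 1.24 ± 0.18 at day 7, 1.08 ± 0.08 at day 14 and 1.16 ± 0.25 at day 21.

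**Figure D1:**
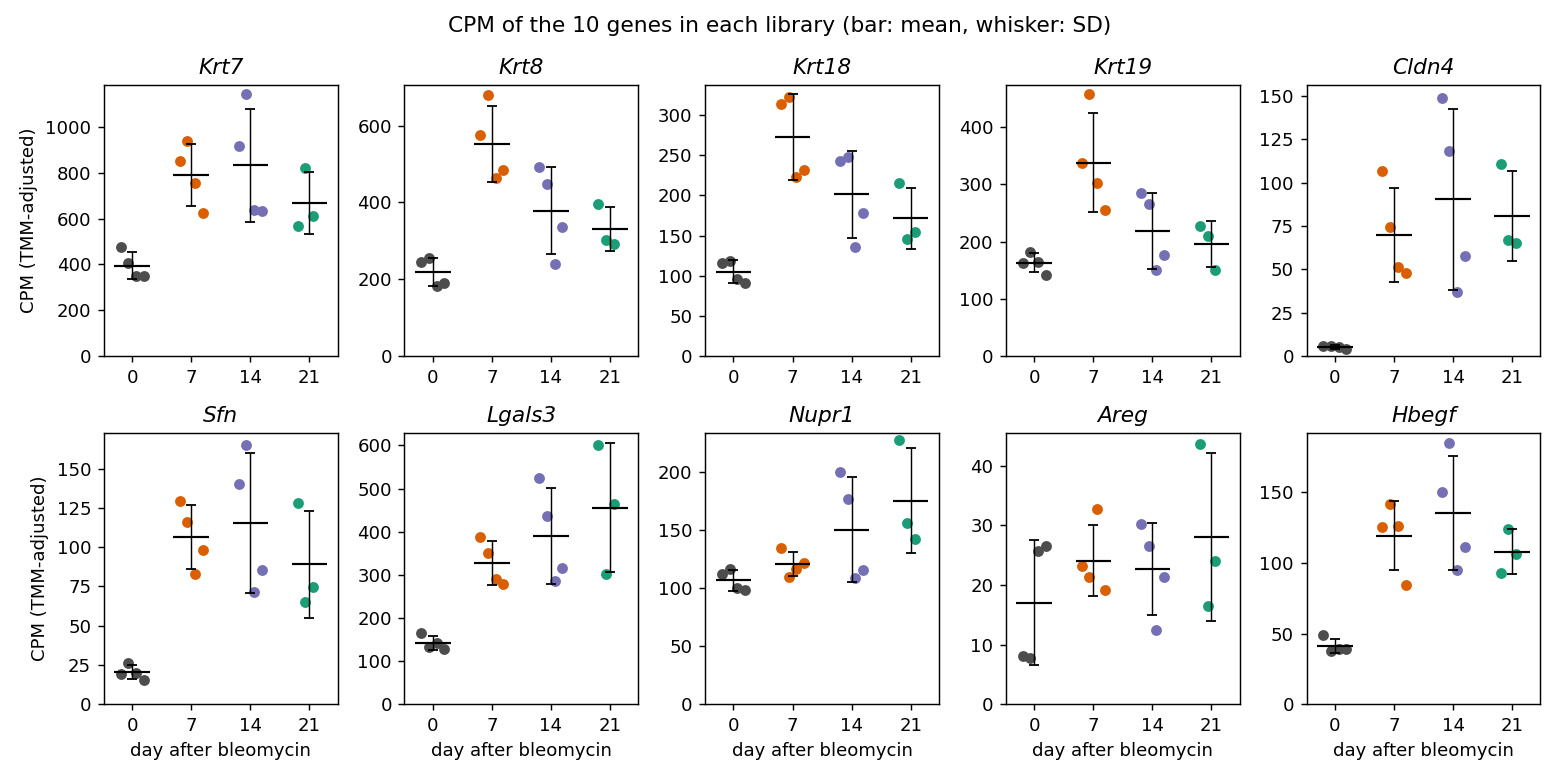
CPM of each of the 10 genes in each library (points), by day after bleomycin on the x axis, with the mean and SD of each day. Cldn4 goes from 3.96 to 5.95 CPM at day 0 to at least 36.8 CPM in every later library, whereas the points of Areg overlap at all days.

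Cldn4 (ENSMUSG00000047501, chr5:134945119-134946934, minus strand, 1 exon), a claudin that seals tight junctions, had the largest change of the 10 genes at each day. It was low in uninjured lung, at 5.95, 5.80, 5.33 and 3.96 CPM, from 71 to 96 reads. Day 7 gave 107, 74.4, 51.2 and 48.0 CPM, day 14 gave 149, 118, 36.8 and 57.7 CPM, and day 21 gave 111, 66.8 and 65.2 CPM. No later library came near the day 0 range, while the libraries within day 14 spread widely, with a coefficient of variation of 57.7%. Cldn4 was 13.3-fold higher at day 7 (log2 fold change 3.74, SE 0.42, edgeR adjusted p 4.6e-05), 17.2-fold at day 14 (4.10, SE 0.42, edgeR adjusted p 6.42e-06) and 15.4-fold at day 21 (3.94, SE 0.43, edgeR adjusted p 1.48e-05). Among the 17457 genes tested its log2 fold change ranked 71 at day 7, 75 at day 14 and 129 at day 21, counted from the highest. Cldn4 reads per Krt8 read rose with it, from 0.0242 ± 0.0036 at day 0 to 0.126 ± 0.040 at day 7, 0.223 ± 0.073 at day 14 and 0.241 ± 0.034 at day 21.

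Sfn (ENSMUSG00000047281, chr4:133600556-133602168, minus strand, 1 exon) encodes stratifin, the 14-3-3 sigma protein, a p53 target of epithelial cells that holds back the cell cycle. It had 19.4, 26.2, 19.7 and 15.6 CPM at day 0 and 129, 116, 82.9 and 98.4 CPM at day 7. It had 140, 165, 71.3 and 85.4 CPM at day 14 and 128, 65.0 and 74.5 CPM at day 21, all above day 0. The log2 fold changes were 2.40 (SE 0.28, edgeR adjusted p 6.13e-05), 2.51 (SE 0.28, edgeR adjusted p 1.35e-05) and 2.14 (SE 0.29, edgeR adjusted p 9.33e-05) at days 7, 14 and 21.

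The promoter windows of these 2 strongest risers are shown because these genes rose most. The sequences are the 250 bases before the gene start in RefSeq (GRCm38.p6), read 5′ to 3′ on the strand of the gene, and capitals mark matches on either strand to 6 motifs, which did not overlap in the windows shown. The AP-1 motif was searched as TGANTCA. The cyclic AMP response element was searched as TGACGTCA. For the TATA box the letters were TATAAA, and for the GC box they were GGGCGG. The CCAAT box was searched by the letters of its name, and the motif of the TEAD factors as GGAATG. Windows were found for 8 of the 10 genes. Cldn4 is read from chr5:134946935-134947184, minus strand, and Sfn from chr4:133602169-133602418, minus strand.
Cldn4: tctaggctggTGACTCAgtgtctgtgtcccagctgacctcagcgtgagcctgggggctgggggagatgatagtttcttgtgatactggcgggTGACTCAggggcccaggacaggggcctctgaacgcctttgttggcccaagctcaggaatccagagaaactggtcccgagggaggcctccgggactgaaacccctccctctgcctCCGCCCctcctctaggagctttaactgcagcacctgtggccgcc
Sfn: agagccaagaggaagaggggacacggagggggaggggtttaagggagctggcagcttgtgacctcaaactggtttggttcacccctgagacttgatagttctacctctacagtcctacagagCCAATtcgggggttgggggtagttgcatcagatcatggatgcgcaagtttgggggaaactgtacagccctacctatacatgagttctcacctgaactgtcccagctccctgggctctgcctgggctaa
Cldn4 held the AP-1 letters at 240 and 158 bases before its start and a GC box, on the reverse strand, at 44 bases. No other of the 8 windows held the AP-1 letters, which 6.75% of all 32841 windows of this length held. Sfn held a CCAAT box at 128 bases, as did 33.9% of all windows. The GC box was in 5 of the 8 windows and in 32.7% of all, the Krt8 and Krt18 windows held none of the 6 motifs, and the TEAD letters, present in 12.6% of all windows, were in none of the 8. A match of letters does not show that a factor binds there.

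Lgals3 (ENSMUSG00000050335, chr14:47367751-47386160, plus strand), the sugar-binding galectin-3, had its highest mean at day 21. Its libraries had 166, 132, 141 and 128 CPM at day 0, 387, 351, 291 and 280 CPM at day 7, 524, 437, 285 and 316 CPM at day 14, and 601, 303 and 464 CPM at day 21. All later libraries exceeded all day 0 libraries, and the later days overlapped. The order of days 14 and 21 rested on day 21 replicate 1, since without it day 21 against day 14 had a log2 value of -0.037. Lgals3 rose by a log2 fold change of 1.204 (SE 0.21, edgeR adjusted p 0.00128), 1.46 (SE 0.22, edgeR adjusted p 0.000146) and 1.68 (SE 0.23, edgeR adjusted p 8.91e-05) at days 7, 14 and 21. Galectin-3 is also a macrophage product, and the summed level of 10 macrophage genes ran from 319 to 393 CPM at day 0, 1003 to 1555 CPM at day 7, 2088 to 5626 CPM at day 14 and 2065 to 5497 CPM at day 21, with none of the 10 at 0 in any library. Of these genes, 7 were higher at day 7, 8 at day 14 and 7 at day 21, where 1 was lower. Cd68, a lysosomal protein of macrophages, rose by 1.35 at day 7 (SE 0.20, edgeR adjusted p 0.000314), 2.00 at day 14 (SE 0.20, edgeR adjusted p 5.78e-06) and 1.89 at day 21 (SE 0.21, edgeR adjusted p 1.7e-05). Spp1, a secreted matrix protein, rose by 5.15 at day 14 (edgeR adjusted p 2.33e-06), and Adgre1, the F4/80 antigen, by 1.36 (edgeR adjusted p 0.00119), all on the log2 scale. The part of macrophages in the Lgals3 value was not tested.

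Nupr1 (ENSMUSG00000030717, chr7:126623249-126630861, minus strand), a small stress-induced nuclear protein, had the smallest change at day 7 and was called at day 21 alone. It had 112, 117, 99.9 and 98.6 CPM at day 0, 134, 110, 116 and 121 CPM at day 7, 200, 177, 109 and 116 CPM at day 14, and 227, 156 and 143 CPM at day 21. The day 21 libraries all stood above day 0, and those of days 7 and 14 overlapped with it. Its log2 fold change was 0.17 at day 7 (SE 0.19, edgeR adjusted p 0.530) and 0.49 at day 14 (SE 0.19, edgeR adjusted p 0.0538), and it passed at day 21 with 0.71 (SE 0.20, edgeR adjusted p 0.0139). Without day 21 replicate 1, the library high in Myh6, the day 21 value was 0.45 (edgeR adjusted p 0.133). The day 14 value passed the test without day 14 replicate 3 (0.62, edgeR adjusted p 0.0178) or without day 14 replicate 4 (0.60, edgeR adjusted p 0.0261).

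The set held 2 ligands of the epidermal growth factor receptor. Hbegf (ENSMUSG00000024486), the heparin-binding ligand, had 48.8, 37.7, 38.9 and 39.3 CPM at day 0 and 125, 142, 126 and 84.4 CPM at day 7. At day 14 it had 150, 185, 95.03 and 111 CPM, and at day 21 92.6, 124 and 107 CPM. Every later library was above every day 0 library. Hbegf rose by a log2 fold change of 1.54 (SE 0.20, edgeR adjusted p 0.000127), 1.72 (SE 0.20, edgeR adjusted p 1.82e-05) and 1.39 (SE 0.21, edgeR adjusted p 0.000207) at days 7, 14 and 21.

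Areg (ENSMUSG00000029378, chr5:91139599-91148432, plus strand), amphiregulin, a low-affinity ligand of the same receptor, did not pass the test at any day. It had 8.09, 7.74, 25.7 and 26.6 CPM at day 0, 23.1, 21.3, 32.7 and 19.2 CPM at day 7, 30.1, 26.6, 12.4 and 21.4 CPM at day 14, and 43.6, 16.4 and 24.1 CPM at day 21. The day 0 libraries lay at separate levels and spanned most of the later ones. The log2 fold changes were 0.50 (SE 0.41, edgeR adjusted p 0.394), 0.41 (SE 0.41, edgeR adjusted p 0.474) and 0.72 (SE 0.44, edgeR adjusted p 0.238). The day 0 libraries low in Areg had mitochondrial shares of 2.28% and 2.31%, and those high in Areg 4.22% and 4.04%. The same libraries differed in heart muscle RNA, with Myh6 at 0.129 and 7.50 CPM where Areg was low and at 82.3 and 73.4 CPM where it was high, and 6 cardiac genes summed to 22.01 and 42.3 CPM against 250.3 and 177 CPM. Among libraries under 2.5%, which kept only the day 0 libraries low in Areg, it was higher at day 7 by 1.59 (SE 0.22, edgeR adjusted p 0.00283). Among libraries over 3.5%, which kept only the day 0 libraries high in Areg, its day 14 value was -0.39 (SE 0.29, edgeR adjusted p 0.399). With the share in the model over all libraries, the values were 1.04 at day 7 (SE 0.51, edgeR adjusted p 0.218) and 0.54 at day 14 (SE 0.40, edgeR adjusted p 0.316). The part of heart muscle RNA or of the mitochondrial share in the Areg values was not tested. Markers of immune cells known to make amphiregulin were counted too. Of 9 genes of innate lymphoid, mast, basophil and regulatory T cells, 5 were tested, none passed at day 7 or 14 and 1 was lower at day 21. Their summed level ran from 204 to 229 CPM at day 0, 116 to 210 CPM at day 7, 114 to 230 CPM at day 14 and 153 to 209 CPM at day 21, with 0 to 4 of the 9 at 0 counts in a library. The Areg window is shown because it alone of the 8 held the cyclic AMP response element and the TATA box. It is read from chr5:91139349-91139598, plus strand, with the same marks.
Areg: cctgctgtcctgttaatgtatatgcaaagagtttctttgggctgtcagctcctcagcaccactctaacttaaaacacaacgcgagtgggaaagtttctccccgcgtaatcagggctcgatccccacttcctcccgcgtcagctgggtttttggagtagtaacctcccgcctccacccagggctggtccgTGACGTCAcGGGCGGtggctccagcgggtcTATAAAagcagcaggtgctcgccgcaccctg
The response element starts 61 bases, the GC box 52 bases and the TATA box 31 bases before the gene start. All windows together held the response element in 1.55% and the TATA box in 12.4%.

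Counted together, 8 of the 10 genes were higher at day 7, 7 at day 14 and 7 at day 21, and none was lower at any of these days. A gene was called changed at an edgeR adjusted p under 0.05 together with a fold above 1.5. Over all 17457 genes tested, 8.78% were higher at day 7, 12% at day 14 and 12.4% at day 21, and 7.36%, 11.2% and 10.1% were lower. The median log2 fold change of the 10 genes was 1.27, 1.01 and 0.74, against 0.01, 0.02 and 0.02 over all genes. Libraries of the later day lay wholly above day 0 for 8, 6 and 8 of the genes, and for 17.6%, 16.8% and 19.4% of all genes. The 3 comparisons share the day 0 libraries. Within the libraries under 2.5% mitochondrial counts, 9 genes were higher at day 7, and within those over 3.5%, 6 were higher at day 14. The first set held only replicates 1 and 2 of day 0 beside all day 7 libraries, and the gene gained was Areg. The second held only replicates 3 and 4 of day 0, the last with the contradictory label, beside replicates 2, 3 and 4 of day 14. Day 21 had too few libraries in either set for such a fit, and with the share in the model 8 were higher at day 21. Leaving out single libraries gave 8 at day 7, 7 to 8 at day 14 and 5 to 7 at day 21. When glmTreat tested against the 1.5-fold boundary itself, 6, 5 and 4 were called: Krt7 and Krt19 lost the call at day 7, Krt8 and Krt18 at day 14, and Krt7, Krt18 and Nupr1 at day 21.

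**Figure D2:**
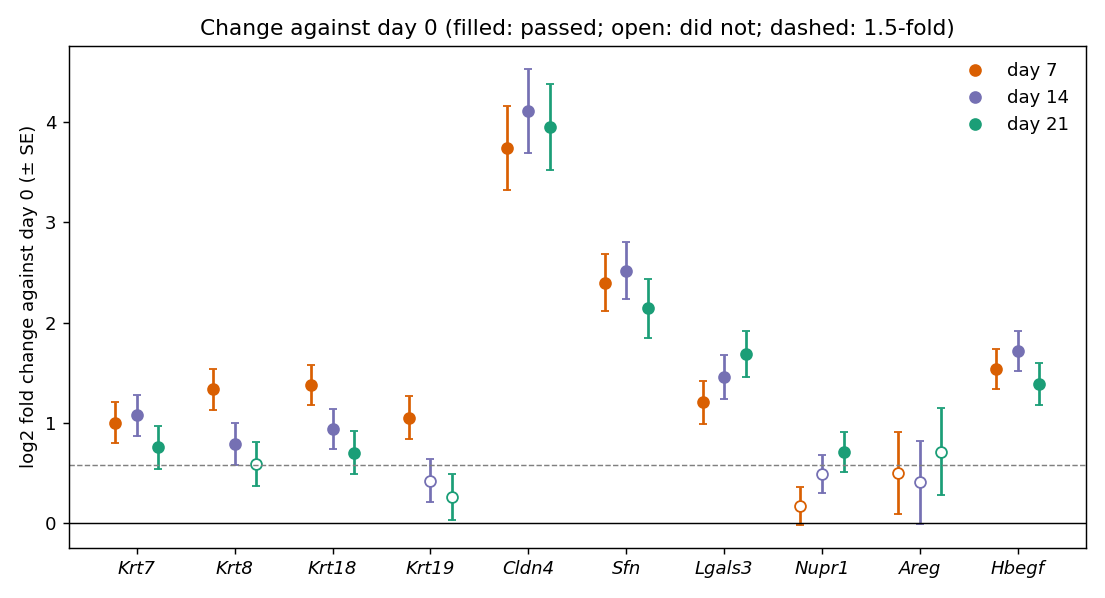
Log2 fold change against day 0 of each of the 10 genes at days 7, 14 and 21, with its SE. Cldn4 and Sfn lie highest at all 3 days, and Krt8, Krt18 and Krt19 have their largest value at day 7 while Lgals3 and Nupr1 have theirs at day 21. Without day 21 replicate 1, day 21 against day 14 is -0.037 for Lgals3 and -0.022 for Nupr1.

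Per kilobase of exon, with the length taken over all annotated exons merged, the order of levels among the genes shifted. This length was 7049 bases for Krt7 and 1958 for Krt8, so the order depends on the length used. By CPM alone, Krt7 was above Krt8 at day 0, with means of 395 and 219. At day 0 Krt8 led with 112 CPM per kilobase, followed by Krt19 at 88.0, Lgals3 at 76.4, Krt18 at 73.1, Krt7 at 56.0 and Nupr1 at 42.5, and Areg at 14.0, Sfn at 12.5, Hbegf at 8.52 and Cldn4 at 2.90 were lowest. At day 14 Lgals3 and Krt8 had mean levels of 210 and 193 CPM per kilobase, and Sfn and Cldn4 had reached 71.6 and 49.8, close to Nupr1 at 59.8. In day 14, replicates 1 and 2 were above replicates 3 and 4 for all 10 genes. The share of all genes that split in the same way was not counted, so this only describes these libraries. The macrophage genes summed to 5626 and 3791 CPM in replicates 1 and 2 and to 2088 and 2289 CPM in replicates 3 and 4, and the part of this in the spread was not tested.

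Between the later days few of the genes were called. From day 7 to day 14 none of the 10 passed the test, and 6% of all genes did, a share to which none of 10 is near. The lowest values were those of Krt19 at -0.63 (SE 0.21, edgeR adjusted p 0.0855) and Krt8 at -0.54 (SE 0.20, edgeR adjusted p 0.112). Krt19 passed without day 14 replicate 1, at -0.78 (edgeR adjusted p 0.0408), and also in DESeq2, with no filter and with the replicate block. From day 14 to day 21 none of the 10, and 0 of all genes, passed in the main edgeR fit (background 0%), where 1714 of all genes had an unadjusted p under 0.05. DESeq2 called 106 of all genes and none of the 10. Some other edgeR fits called genes too, such as 37 of all with no filter and 127 without day 14 replicate 1, and again none of the 10. Day 21 against day 7, a contrast added after the data were seen, had Krt8 lower by a log2 value of -0.74 (SE 0.22, edgeR adjusted p 0.0420) and Krt19 by -0.79 (SE 0.23, edgeR adjusted p 0.0392), with 4.34% of all genes lower and 5.2% higher. Krt18 had -0.67 (SE 0.21, edgeR adjusted p 0.0522), and it passed without day 21 replicate 1 (-0.89, edgeR adjusted p 0.0438) and in 4 of the other fits. All day 21 libraries were below all day 7 libraries for these 3 keratins, as they were for 13.4% of all genes. Neither call was firm, since Krt8 lost it whichever of the 7 libraries was left out (-0.91 to -0.62), Krt19 lost it in 6 of the 7, keeping it without day 7 replicate 4 (-0.92 to -0.61 over all 7), and with the mitochondrial share in the model the values were -0.45 (edgeR adjusted p 0.287) and -0.60 (edgeR adjusted p 0.213). Over the same interval Lgals3 had 0.48 (edgeR adjusted p 0.170), Nupr1 0.54 (edgeR adjusted p 0.0818) and Cldn4 0.21 (edgeR adjusted p 0.758). Of these, Nupr1 lay wholly above day 7 at day 21, as did 14.6% of all genes. In the same contrast 7 of 8 general epithelial genes (median log2 value -0.89) and 9 of 9 type 2 genes (median -1.41) were lower, and the part of this in the keratin values was not tested.

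Krt8 was next set beside 2 general epithelial genes within each library, Epcam, an adhesion molecule, and Cdh1, the adherens junction cadherin. Epcam had log2 fold changes of 0.49, 0.26 and -0.13 at days 7, 14 and 21 and Cdh1 of 0.46, 0.07 and -0.33, and none of the 6 was called. The log2 level of Krt8 minus the mean of both was 0.35, 0.29, 0.38 and 0.35 in the day 0 libraries. It was 1.08, 1.67, 1.0003 and 0.96 at day 7, 1.27, 1.01, 0.61 and 0.78 at day 14, and 1.34, 1.05 and 1.07 at day 21. All 11 later libraries were above all day 0 libraries. The means differed from day 0 by 0.83, 0.57 and 0.81, each with an exact two-sided permutation p of 0.0286, which is the smallest these group sizes allow and stays at 0.0286 after adjustment over the 3 days. At day 14 the p was 0.0571 without any 1 of the day 0 libraries, with differences of 0.56 to 0.59. Against all 8 general epithelial genes the differences were 1.17, 1.08 and 1.32, and against Epcam alone 0.84, 0.51 and 0.74. The same quantity for Krt19 differed from day 0 by 0.52, 0.20 and 0.46, and for Cldn4 by 3.18, 3.73 and 4.13. Nupr1 had -0.33, 0.26 and 0.90, and its day 7 value was the single negative one among the 10 genes.

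**Figure D3:**
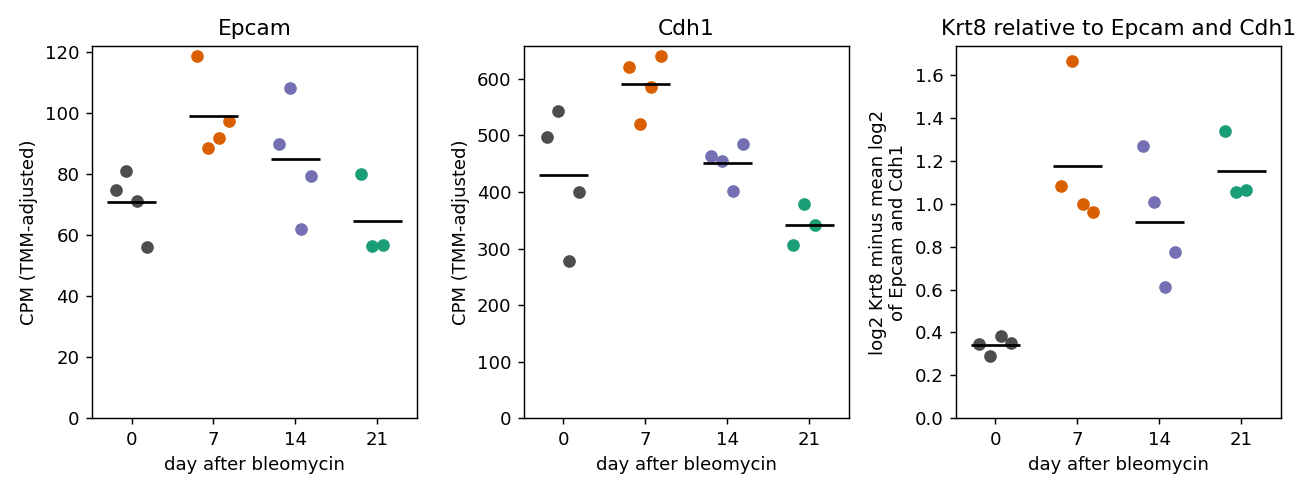
CPM of Epcam, CPM of Cdh1 and, in the last panel, log2 CPM of Krt8 minus the mean log2 CPM of both. Points are libraries, by day, with the mean of each day. In the last panel, the 4 day 0 points lie between 0.29 and 0.38 and the later points between 0.61 and 1.67.

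Other genes described for the transitional state were followed too. Of 20 such genes that are not among the 10, all tested, 15 were higher at day 7, 16 at day 14 and 16 at day 21, and none was lower. Their median log2 fold changes were 1.26, 1.48 and 1.36, and their lowest values 0.10, 0.05 and 0.35. Sprr1a, a cornified-envelope protein, had a mean of 0.716 CPM at day 0 and 32.3, 10.3 and 8.09 CPM at the later days, with log2 fold changes of 5.50 (SE 0.38), 3.85 (SE 0.37) and 3.51 (SE 0.38) and edgeR adjusted p of 5.7e-07, 4.05e-06 and 1.43e-05. Cdkn1a, the p21 cell cycle inhibitor and a p53 target, went from 117 CPM to 418, 335 and 306 CPM, with log2 fold changes of 1.84 (SE 0.21), 1.52 (SE 0.21) and 1.39 (SE 0.22) and edgeR adjusted p of 4.82e-05, 6.71e-05 and 0.000261. Anxa2, a membrane-binding annexin, had the smallest called value at day 14, at 0.59 (SE 0.16, edgeR adjusted p 0.0104). Depending on the fit, 9 to 16, 12 to 18 and 12 to 17 of the 20 were higher.

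Of 13 other genes of the receptor pathway, 11 were tested, and 2 were higher at day 7, 2 higher and 4 lower at day 14, and 1 higher and 4 lower at day 21. Ereg, the ligand epiregulin, rose most, from a mean of 0.299 CPM to 6.22, 11.3 and 23.3 CPM, with log2 fold changes of 4.33 (SE 0.68), 5.18 (SE 0.68) and 6.23 (SE 0.70) and edgeR adjusted p of 0.000521, 5.16e-05 and 1.82e-05. Single libraries set the later means: day 14 had 25.5, 7.40, 5.32 and 6.88 CPM, with a mean of 6.53 CPM without replicate 1, and day 21 had 41.6, 11.2 and 17.1 CPM, with a mean of 14.1 CPM without replicate 1, the library high in Myh6. Egfr, the receptor of Areg and Hbegf, had log2 values of 0.33, 0.06 and 0.17 and was not called. Errfi1, a feedback inhibitor of the receptor, had -0.78 at day 7 (edgeR adjusted p 0.0564) and fell by 1.41 at day 14 (SE 0.29, edgeR adjusted p 0.00185) and by 1.34 at day 21 (SE 0.32, edgeR adjusted p 0.00552) on the log2 scale.

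Other members of the families of these genes were counted as well. Of 12 other keratins 8 were tested, with 0 higher and 1 lower at day 7 and 1 higher and 2 lower at days 14 and 21. Krt20 rose by 3.36 at day 14 (SE 0.98, edgeR adjusted p 0.0160), from a mean of 0.0786 CPM at day 0 to 0.855 CPM, and Krt79 fell by 4.49 (SE 0.46, edgeR adjusted p 6.36e-06). Of 13 other claudins 12 were tested, with 2 higher at day 7 and 2 higher and 5 lower at days 14 and 21. Cldn6 rose by 3.85 at day 14 (SE 0.67, edgeR adjusted p 0.000510) at a mean of 1.41 CPM, and Cldn10 fell by 2.19 (SE 0.29, edgeR adjusted p 5.25e-05). Among 6 other 14-3-3 genes 2 were higher at day 7, where the log2 values of the 6 ran from 0.13 to 0.82, and none was called later. Among 7 other galectins, 2, 1 and 2 were lower at days 7, 14 and 21 and Lgals1 was the 1 gene higher at each day, by 2.28 at day 14 (SE 0.29, edgeR adjusted p 3.69e-05), while Lgals12 fell by 2.65 (SE 0.42, edgeR adjusted p 0.000251), all on the log2 scale.

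Markers of the cells at either end of the transition gave other patterns. Of 9 type 2 genes, none was called at day 7, 5 were lower at day 14 and 9 at day 21. Of these, Sftpa1, a surfactant protein, fell by 1.56 at day 14 (SE 0.28, edgeR adjusted p 0.000757) and Sftpb by 0.66 (SE 0.21, edgeR adjusted p 0.0236) on the log2 scale, while Sftpc had a mean of 19388 CPM at day 0 and 3710 CPM at day 21. Of 8 type 1 genes, 2 were higher and 1 lower at day 7, 2 higher at day 14, and 2 higher and 2 lower at day 21. Pdpn, a surface mucin-like protein of type 1 cells, rose by 1.16 at day 14 (SE 0.18, edgeR adjusted p 0.000183), and Igfbp2 by 1.52 (SE 0.42, edgeR adjusted p 0.0113). Ager, a receptor of type 1 cells, had 0.10, 0.22 and -0.27 and was not called, and Hopx, a homeodomain protein, was lower by -0.77 at day 7 (SE 0.24, edgeR adjusted p 0.0300) and by -0.85 at day 21 (SE 0.26, edgeR adjusted p 0.0244). Of 8 general epithelial genes, 1 was higher at day 7, 2 were lower at day 14, namely the transcription factors Ehf (-1.29, edgeR adjusted p 0.00195) and Grhl2 (-0.88, edgeR adjusted p 0.000403), and 4 were lower at day 21.

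Other cells that make keratins were followed by their markers. Of 5 club cell genes, 2, 3 and 2 were lower at days 7, 14 and 21, and of 6 ciliated cell genes, 1, 6 and 5 were lower, with none called higher in either list. The club genes were split, with log2 values from -1.59 to 2.23 at day 7, -3.05 to -0.47 at day 14 and -3.36 to 3.96 at day 21. At day 14 the club genes Cyp2f2 and Scgb3a2 fell by 3.05 (edgeR adjusted p 6.89e-06) and 1.62 (edgeR adjusted p 0.0123), and the ciliated genes Tppp3 and Foxj1 fell by 2.07 (edgeR adjusted p 5.87e-05) and 0.90 (edgeR adjusted p 0.0322) on the log2 scale. Of 6 mesothelial genes, only Msln was called, with 0.96 at day 7 (edgeR adjusted p 0.0851), 2.28 at day 14 (SE 0.41, edgeR adjusted p 0.000635) and 2.13 at day 21 (SE 0.42, edgeR adjusted p 0.00160). The summed level of the mesothelial genes ran from 226 to 386 CPM at day 0, 138 to 530 CPM at day 7, 447 to 993 CPM at day 14 and 463 to 746 CPM at day 21, with none at 0. Of 5 basal cell genes, 4 were tested, with 2 higher at day 7, none at day 14 and 1 at day 21. Trp63, the basal cell transcription factor, had 1.43 at day 7 (SE 0.45, edgeR adjusted p 0.0314), 0.30 at day 14 and 2.01 at day 21 (SE 0.48, edgeR adjusted p 0.00509), at means of at most 2.53 CPM and with 4.64 CPM in its highest day 21 library. Krt5, which defines basal cells, had 0 counts in all 4 day 0 libraries, at most 7 counts in any library of days 7 and 14, and 142 counts in day 21 replicate 1 against 0 in the other day 21 libraries. The summed basal level was 28.1 CPM in that library and 5.98 and 5.24 CPM in the other day 21 libraries. The part of these cells in the keratin values was not tested.

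**Figure D4:**
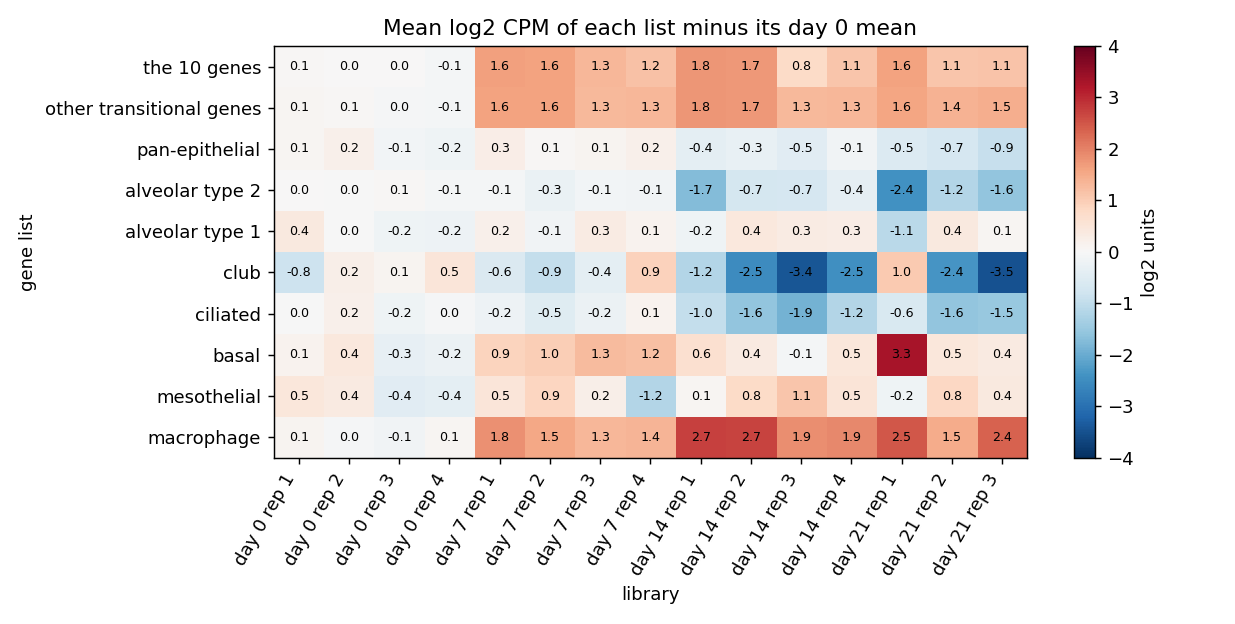
Mean over each gene list of log2 CPM minus the day 0 mean of that list, per library. Lists are in rows and libraries in columns grouped by day. The rows of the 10 genes, of the other transitional genes and of macrophage genes are raised in all libraries after day 0, and the type 2, club and ciliated rows are lowered at day 14.

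Libraries of the same day also differed together in these genes. After the mean of each day was subtracted from log2 CPM, the 45 pairs among the 10 genes had a median Pearson r of 0.69 over the 15 libraries, with 30 pairs above 0.5. These values are descriptions, since all pairs share the same libraries and their scaling. Krt8 and Krt18 had the highest r, at 0.96 (Spearman 0.84, and Pearson 0.95 without the 2 libraries farthest from the median). Krt7 and Hbegf followed with 0.93, as did Krt18 with Cldn4 and with Sfn. Areg stood apart, with no r above 0.41 and a median of 0.20 with the other 9 genes, and the pair of Areg and Krt7 was the single pair below 0, at -0.15. Lgals3 had an r of 0.93 with the mean of the macrophage genes (Spearman 0.93, and Pearson 0.88 without the 2 farthest libraries) and of 0.84 with the mean of the other transitional genes. Krt18, Cldn4 and Sfn each had 0.77 with the macrophage genes and Nupr1 had 0.73. Krt8 had 0.67 with the macrophage genes, 0.41 with the general epithelial genes, 0.06 with the mesothelial genes and 0.90 with the other transitional genes. It had -0.56 with the type 2 genes, -0.36 with the type 1 genes and -0.51 with the log2 mitochondrial share. Without the 2 farthest libraries, these Krt8 values were, in the same order, 0.62, 0.33, 0.14, 0.85, -0.28, -0.24 and -0.30. Lgals3 and Nupr1 had -0.77 and -0.73 with the type 2 genes, and -0.58 and -0.37 without the 2 farthest libraries. Krt7 had 0.50 and Hbegf 0.46 with the mesothelial genes and 0.72 and 0.68 with the other transitional genes.

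**Figure D5:**
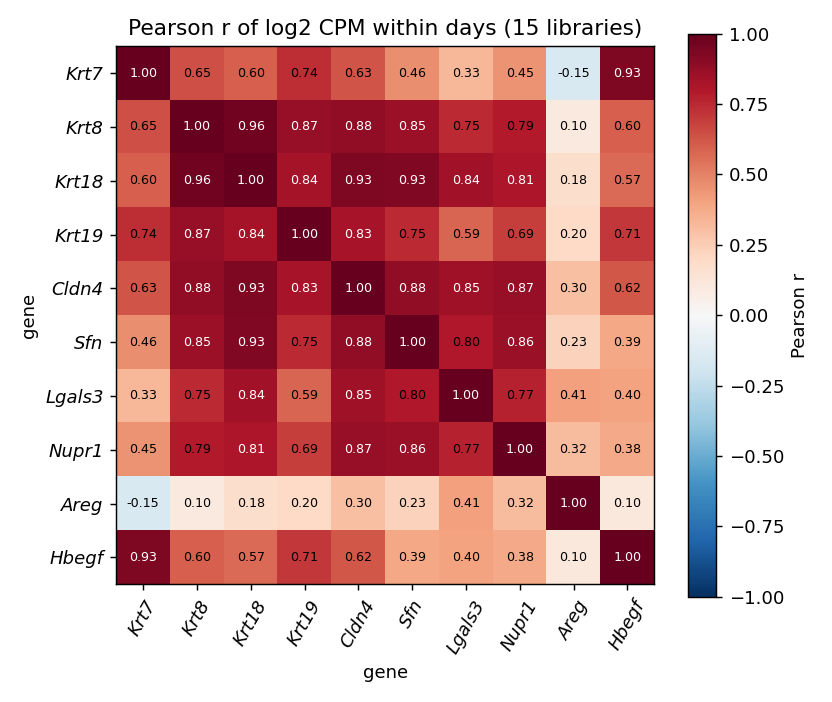
Pearson r of log2 CPM over 15 libraries after subtracting each day's mean, for each pair of the 10 genes. Krt8, Krt18, Cldn4 and Sfn have r of at least 0.85 with each other, and the values of Areg are at most 0.41.

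Of 13936 other genes with a mean of at least 1 CPM, leaving out those with provisional names (Gm or Rik), those most like Krt8 by the same measure were Rrs1, a ribosome assembly factor, with an r of 0.93, Hgsnat, a lysosomal acetyltransferase, with 0.92, Nsun2, an RNA methyltransferase, with 0.92, Slc39a11, a zinc transporter, with 0.92, and G6pdx, the first enzyme of the pentose phosphate pathway, with 0.92. Without centring by day, the values were 0.95, 0.63, 0.93, 0.73 and 0.90.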

How the data were processed

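Lungs were sequenced as polyadenylated RNA. The authors trimmed reads with TrimGalore, aligned them to mm10 with HISAT2 2.1.0, left out multi-mapped reads and deposited unnormalized counts per Ensembl gene made by HTSeq 0.6.0. The submitters' notes also name DESeq2 1.40.2. The annotation release and strand setting are not given in the sources used here, so antisense overlaps carry that uncertainty: 101 bases of Krt8 overlap Gm36026 and 77 bases of Krt7 overlap Gm671, neither of which is counted. Day and replicate came from the sample titles, and the series description gives fewer replicates per day.

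Symbols, coordinates and exon lengths came from GENCODE M21, which matched 33267 identifiers. The others held 0.00889% of counts. Of 33340 genes, 17457 passed filterByExpr and were tested with edgeR 4.0.16 in R 4.3.3 (TMM factors, quasi-likelihood test, all 15 libraries in 1 fit with day as the only term, Benjamini-Hochberg adjustment over all genes tested). The common biological coefficient of variation was 22.8%. Thresholds were those of the study. Log2 CPM used a prior count of 2. Libraries held 15652008 to 18020661 counts, and no member had fewer than 71 counts in a library. No pair of libraries of a day agreed within counting noise (lowest chi-square per degree of freedom 10.9 over 21 pairs).

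The members and lists were chosen with earlier results of these data known. Named from each list were the changed genes with the largest and smallest log2 fold change at day 14, plus Epcam, Cdh1, Sftpc, Ager, Hopx, Scgb1a1, Foxj1, Trp63, Krt5, Msln, Cd68, Egfr and Cdkn1a, and the 5 genes most like Krt8. A list of 6 cardiac genes, 5 tested, had 1 lower gene at day 14, Myh6, and none called at the other days. It summed to 588 CPM in day 7 replicate 4 and 702 CPM in day 21 replicate 1, and to 250.3 CPM or less elsewhere. Alternatives were DESeq2 1.42.0, RLE factors, total count scaling, a minimum mean of 1 CPM, no filter, the 2 days alone, replicate number as a block, limma 3.58.1 voom, no fold threshold, glmTreat, the mitochondrial share (16 genes) as a covariate or as sets under 2.5% and over 3.5%, and leaving out each library.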

Additional observations from a re-analysis of the deposited data

Results flagged for a closer look

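Hbegf in day 0 replicate 1 stood apart from the rest of its group, at 48.8 CPM, where the others lay between 37.7 and 39.3 CPM. It was 1 of 33 groups of 4 libraries examined, and chance sets apart about 5% of such groups. The change of a pair of keratins differed between later days: day 21 was below day 7 by a log2 value of -0.74 for Krt8 and -0.79 for Krt19, in the contrast added after the data were seen, and the calls were lost in most fits without a single library.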

How the results depend on the processing

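Over the alternatives other than leaving out a library, the number of the 10 genes called ranged from 6 to 9 at day 7, 5 to 7 at day 14 and 4 to 8 at day 21 against day 0, all of them higher. Testing against the 1.5-fold boundary with glmTreat gave the 4 at day 21. From day 7 to day 14, DESeq2, no filter and the replicate block each called 1 gene, Krt19, against 0, and leaving out libraries gave 0 to 1. From day 7 to day 21, glmTreat and the mitochondrial covariate called 0 against 2, leaving out libraries gave 0 to 1, and DESeq2, no filter, only the 2 days compared and the replicate block each called 3, gaining Krt18 (adjusted p 0.0228, 0.0250, 0.0499 and 0.0131; the first from DESeq2, the others from edgeR). Whether replicate numbers pair the libraries was not decided. The 21 same-number pairs had correlations of -0.244 to 0.397 between deviations from the day means, 8 of them over 0.1. No pairs of different number were set beside them. With the replicate block, the Krt8 value relative to Epcam and Cdh1 was 0.83 (exact permutation p 0.125), 0.57 (exact permutation p 0.125) and 0.81 (exact permutation p 0.250) at days 7, 14 and 21, where so few pairs cannot pass. Leaving out libraries gave 0.46 to 0.67 at day 14, where the exact permutation p was 0.0571 without any 1 day 0 library and 0.0286 without any 1 day 14 library, and 0.72 to 0.86 at day 21, where the sizes cannot pass. Among the single genes the direction turned for Areg at day 14 over 3.5% mitochondrial counts (-0.39), and from day 7 to day 21 with the covariate for Areg (-0.29) and Hbegf (0.021), and from day 14 to day 21 with voom for Cldn4 (0.0038). Leaving out libraries turned uncalled values from day 7 to day 14 of Krt7 (-0.12 to 0.18), Sfn (-0.10 to 0.29), Areg (-0.26 to 0.11) and Hbegf (-0.0024 to 0.32), from day 14 to day 21 of Cldn4 (-0.47 to 0.18), Lgals3 (-0.037 to 0.43), Nupr1 (-0.022 to 0.38) and Areg (-0.17 to 0.56), and from day 7 to day 21 of Cldn4 (-0.11 to 0.47) and Areg (-0.27 to 0.46). The causes were not tested. Over all single-gene values, 1069 kept direction and call, 30 lost a call, 15 gained one and 16 turned. No scaling moved the median of all genes by over 0.1.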

Other observations

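Some genes outside the naming rule are given here after their values were seen. Gdf15, a stress hormone of the transforming growth factor family, averaged 1.58 ± 0.17 CPM (SD) in the 4 day 0 libraries, then 24.2 ± 3.2, 16.8 ± 4.4 and 9.55 ± 2.39 CPM in the 4, 4 and 3 libraries of days 7, 14 and 21, with log2 fold changes of 3.94, 3.41 and 2.60 and edgeR adjusted p of 2.24e-07, 3.35e-07 and 4.45e-06. Cldn2, a pore-forming claudin, rose by 3.24, 3.05 and 4.11 (edgeR adjusted p 0.000236, 0.000157 and 2.29e-05), while Cldn18, the main alveolar claudin, had 0.21, 0.36 and -0.06 and was not called. Ccn2, a matrix-associated growth factor, had 0.25 at day 7 (edgeR adjusted p 0.618) and rose by 1.65 at day 14 (edgeR adjusted p 0.00199) and 1.62 at day 21 (edgeR adjusted p 0.00355). Krt17, a keratin of basal cells, had 0 counts in the day 0 libraries, 0.220 to 0.595 CPM at day 7 and 0.295 to 0.543 CPM at day 14. At day 21 it had 4.45 CPM in replicate 1, the library with 142 Krt5 counts, and 0.228 and 0.235 CPM in the others. All fold changes are log2 values.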
